A study of Mus musculus with 24 samples.

Results

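FOXP1-only peaks are the places where ChIP-seq, which enriches chromatin fragments with an antibody and calls a peak where reads pile up above background, found the forkhead transcription factor FOXP1 in mouse cortex at the embryonic stage E15.5 and found neither ARID1B, which belongs to the BAF complex that remodels chromatin, nor TCF7L2, a DNA-binding effector of Wnt signaling, at E15.5 or E18.5. They were chosen by peak overlap: a peak of the FOXP1 E15.5 list on chromosomes 1 to 19 was a member if it shared no base with any peak of the ARID1B and TCF7L2 lists of E15.5 and E18.5. Of 63281 such FOXP1 peaks, 8971 met the rule (14.2%); 14553 of the others met ARID1B alone, 3849 TCF7L2 alone, and 35908 both, and these are called shared peaks. The members were divided into 1359 promoter peaks, which touch the 2000 bp upstream of a GENCODE vM21 transcription start site (TSS) of any kind, and 7612 distal peaks.

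All libraries came from cortex of wild-type (WT) embryos at E15.5 or E18.5, with no treatment, and the labels name no transgene or deleted allele in any group. Each of the 3 transcriptional regulators (TRs) was assayed per stage in 2 ChIP libraries and 2 inputs, 24 libraries altogether, and each TR and stage has 1 deposited list of peaks, which is filed with the first ChIP replicate and was, by the study's methods, called on merged replicates. The labels write TCF4 for the target that the list of antibodies names TCF7L2. There is thus 1 value per peak and stage, no replicate error, and no p-value; shares are followed by 95% Wilson intervals, which cover counting error only and are too narrow where neighboring peaks depend on each other. Cells within the cortex cannot be told apart in these bulk libraries, and peak lists hold no expression with which the labelled tissue could be checked. Fold enrichment is reads at the summit divided by a constant background, with 1 added to both. At E15.5 the background was 6.90 ChIP reads at a point. At E18.5 each ChIP read counted as 0.561 before the ratio was taken, and the background of 2.81 on that scale equals 5.01 ChIP reads. The p-values of that list matched the scaled counts, so that 2.81 is the background on which its peaks were called. The lowest fold enrichment was 2.40 at E15.5 and 3.21 in the list of the later stage.

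FOXP1 marks several neuron types of the developing forebrain, among them projection neurons of the cortex and of the striatum. Its forkhead domain recognizes short sequences around TGTTTAC, and proteins of the FOXP family bind DNA as dimers; the related FOXP3 is also known to assemble on tandem repeats whose units are runs of T closed by a G. CTCF is a zinc finger protein that binds a long motif at chromatin loop anchors and insulators in most cell types. CUX1 is a homeodomain protein of upper-layer cortical neurons, and the same gene also encodes CASP, a Golgi protein made from a transcript with other last exons.

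The sequences given here are 200 bp around summits, on the plus strand of GRCm38, and stand for the kinds of members described in turn. The first group holds members of high E15.5 fold enrichment that were found again at E18.5 and hold TGTTTAC. The motif or its reverse complement is in capitals, and other elements described below are left in lower case. Of the 2 promoter members that met these conditions, 1 stands beside the 3 highest distal ones.
Pld1 promoter, chr3:28107792-28107991: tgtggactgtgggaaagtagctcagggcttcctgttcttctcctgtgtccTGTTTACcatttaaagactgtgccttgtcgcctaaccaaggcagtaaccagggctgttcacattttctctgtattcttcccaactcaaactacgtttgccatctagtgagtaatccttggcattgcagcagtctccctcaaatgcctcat
distal, nearest Tmem200a, chr10:26139484-26139683: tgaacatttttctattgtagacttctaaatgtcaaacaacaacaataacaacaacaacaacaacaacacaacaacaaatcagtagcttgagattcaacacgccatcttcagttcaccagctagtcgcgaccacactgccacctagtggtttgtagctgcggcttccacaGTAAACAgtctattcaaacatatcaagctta
distal, nearest Snrpn, chr7:60728310-60728509: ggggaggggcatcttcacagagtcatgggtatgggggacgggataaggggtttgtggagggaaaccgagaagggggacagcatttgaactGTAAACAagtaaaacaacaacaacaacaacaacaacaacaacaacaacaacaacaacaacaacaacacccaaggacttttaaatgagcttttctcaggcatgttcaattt
distal, nearest Rpl5, chr5:107921466-107921665: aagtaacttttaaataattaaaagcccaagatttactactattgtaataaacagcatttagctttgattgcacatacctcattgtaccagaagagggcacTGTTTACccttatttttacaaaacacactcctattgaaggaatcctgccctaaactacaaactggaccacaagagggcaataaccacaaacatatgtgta

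The second group holds the promoter and the distal member of highest E15.5 fold enrichment without an E18.5 peak. In the first, capitals mark bases of a coding exon of Cux1, and the second, in an intron of Tmem132d, holds no marked element.
Cux1 exon, chr5:136373251-136373450: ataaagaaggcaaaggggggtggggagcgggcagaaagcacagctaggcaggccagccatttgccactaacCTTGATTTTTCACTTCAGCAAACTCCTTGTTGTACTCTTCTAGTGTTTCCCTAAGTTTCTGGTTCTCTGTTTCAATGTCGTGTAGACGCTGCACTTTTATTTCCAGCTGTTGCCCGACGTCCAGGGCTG
Tmem132d intron, chr5:127844051-127844250: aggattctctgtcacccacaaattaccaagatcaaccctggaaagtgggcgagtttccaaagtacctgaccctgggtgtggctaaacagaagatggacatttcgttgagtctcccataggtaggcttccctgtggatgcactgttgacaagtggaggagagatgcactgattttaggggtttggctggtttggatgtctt

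The third group, chosen after the values were seen, holds the 3 members with an uninterrupted tract of the unit AAC (GTT on the other strand) that reached the highest fold enrichment at E18.5, with the longest tract in capitals. In each window, further GTT repeats lie beside the marked tract.
distal, nearest Slitrk1, chr14:107858520-107858719: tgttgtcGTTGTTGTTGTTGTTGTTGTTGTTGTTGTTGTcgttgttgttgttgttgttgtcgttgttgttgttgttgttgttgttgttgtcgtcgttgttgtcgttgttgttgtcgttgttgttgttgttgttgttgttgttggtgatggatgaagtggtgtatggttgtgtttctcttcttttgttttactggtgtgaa
Spats2 intron, chr15:99185681-99185880: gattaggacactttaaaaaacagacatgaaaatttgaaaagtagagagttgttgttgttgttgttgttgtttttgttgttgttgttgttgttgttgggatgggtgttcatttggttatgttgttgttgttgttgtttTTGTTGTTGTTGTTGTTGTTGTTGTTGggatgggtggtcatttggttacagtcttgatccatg
distal, nearest Cdc5l, chr17:45139648-45139847: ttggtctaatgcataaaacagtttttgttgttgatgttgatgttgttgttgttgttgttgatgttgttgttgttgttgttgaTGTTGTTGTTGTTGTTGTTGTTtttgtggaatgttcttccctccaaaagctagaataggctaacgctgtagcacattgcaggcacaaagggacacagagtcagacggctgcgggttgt

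The fourth group, also chosen after the values were seen, holds 2 members of high E15.5 fold enrichment outside Cux1 exons with the core of the CTCF motif on either strand and in capitals; the core is CC, any 3 bases, AG, any 2 bases, and GGC.
Prkar2b intron, chr12:31967635-31967834: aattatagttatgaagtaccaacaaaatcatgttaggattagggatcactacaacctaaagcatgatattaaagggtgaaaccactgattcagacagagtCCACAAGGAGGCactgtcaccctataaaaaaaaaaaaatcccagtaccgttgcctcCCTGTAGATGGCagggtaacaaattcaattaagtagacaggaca
distal, nearest Akr1cl, chr1:65010272-65010471: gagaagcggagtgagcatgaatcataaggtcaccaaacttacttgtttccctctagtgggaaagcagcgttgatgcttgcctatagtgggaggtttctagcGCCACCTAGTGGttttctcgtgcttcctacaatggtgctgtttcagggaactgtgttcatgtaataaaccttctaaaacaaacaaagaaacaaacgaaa

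FOXP1-only peaks were mostly low and narrow. Their median fold enrichment at E15.5 was 3.29, with quartiles of 3.04 and 3.80 and a range of 2.40 to 19.7, and 7332 of 8971 (81.7%, 80.9 to 82.5%) lay below 4. With a constant background of 6.90 reads, the median corresponds to 25 reads at the summit, and the lowest member had 18. Promoter members had the same median as distal members, 3.29, and reached at most 9.11. Shared peaks had a median of 7.59 at promoters and 3.92 elsewhere. Those with 1 partner were almost as low as members, with medians of 3.54 for ARID1B alone and 3.42 for TCF7L2 alone. Peaks with both had a median of 5.32. The share of FOXP1 peaks that met the rule fell with height, from 24.4% (23.9 to 24.9%) below 4-fold to 10.7% between 4 and 5, 1.63% between 6 and 8, and 4 of 4817 at 12-fold or more. The median width was 264 bp, against 412 bp for shared distal and 1020 bp for shared promoter peaks. It was 314 bp both with ARID1B alone and with TCF7L2 alone, and 724 bp with both partners.

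**Figure D1:**
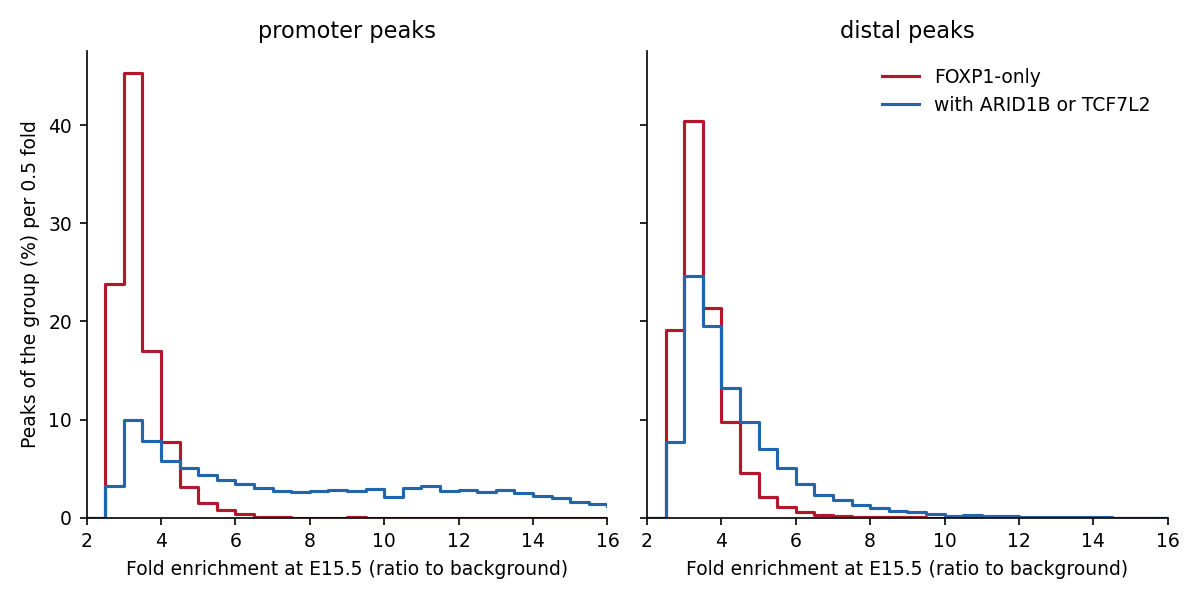
Percent of peaks (y axis) per 0.5 of fold enrichment at E15.5 (x axis, ratio to background) for promoter peaks (left) and distal peaks (right). FOXP1-only peaks (red) pile up near the detection limit, with a median of 3.29 in both panels, while peaks shared with ARID1B or TCF7L2 (blue) had medians of 7.59 and 3.92.

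For 844 members, a peak of ARID1B or TCF7L2 ended within 100 bp, with a median fold enrichment of 3.16 and a range of 2.53 to 7.21, and the 1409 shared peaks of which a partner peak covered at most 100 bases had a median of 3.16 and a range of 2.53 to 6.96. The nearest partner peak was at a median distance of 3563 bp, and 3174 members (35.4%) had one within 1000 bp. This neighborhood was more frequent at promoters (736 of 1359, 54.2%) than at distal members (2438 of 7612, 32.0%). Members were spread over all 19 chromosomes, between 2.68 per Mb (chromosome 14) and 5.37 per Mb (chromosome 11), and made up 13.0 to 15.4% of the FOXP1 peaks of a chromosome.

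Promoters were less frequent among members than in the list as a whole. Of the 8971 members, 15.1% (14.4 to 15.9%) touched a promoter, against 30.2% of all FOXP1 E15.5 peaks and 32.7% of shared peaks. The difference from shared peaks was -17.6 percentage points (Newcombe 95% interval -18.4 to -16.7). Below 4-fold, where most members lay, the shares were close: 1171 of 7332 members and 3740 of 22683 shared peaks. Between 4 and 5 the counts were 148 of 1242 and 1930 of 10334. Shared peaks were not uniform either. The median distance to a protein-coding TSS was 43443 bp with ARID1B alone, 3805 bp with TCF7L2 alone, and 5144 bp with both. For members it was 15612 bp. Promoter members lay at protein-coding genes in 959 cases, at long non-coding genes in 226, at pseudogenes in 71, and at other genes in 103. Of shared promoter peaks, 87.2% were at protein-coding genes, against 70.6% of promoter members. Most of these genes had other FOXP1 peaks as well: 745 of the 944 protein-coding genes with a promoter member also had a shared FOXP1 peak at a promoter, and 199 did not. The summit lay in an intron in 4526 members, between genes in 3542, in a non-coding exon in 345, in a UTR in 311, and in a coding exon in 247 (2.75%, against 4.33% of all FOXP1 E15.5 peaks).

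The members were set beside the FOXP1 list of E18.5. The rule did not use that list, but it used the ARID1B and TCF7L2 lists of E18.5. A place with a FOXP1 peak at E18.5 could thus more readily count as shared. Of the autosomal FOXP1 peaks of E18.5, 22985 met a partner peak and 1541 did not. With the partner lists of E15.5 only, 8.19% of promoter and 9.32% of distal members had a FOXP1 peak at E18.5. A member was called kept if an E18.5 FOXP1 peak overlapped it by at least 1 base. Of 8971 members, 742 were kept (8.27%, 7.72 to 8.86%), against 34.1% of all FOXP1 E15.5 peaks. Low kept shares were not particular to members. With ARID1B alone 1288 of 14553 peaks were kept and with TCF7L2 alone 446 of 3849, against 19078 of 35908 with both. At promoters, 83 of 1359 members were kept (6.11%, 4.95 to 7.51%), against 66.6% of all promoter FOXP1 peaks and 71.2% of the shared ones. At distal places, 659 of 7612 were kept (8.66%, 8.05 to 9.31%), against 20% of all distal FOXP1 peaks and 22.3% of the shared ones. Distal members were kept more often than promoter members by 2.55 percentage points (1.02 to 3.88). The order turned (31.5% at promoters, 9.93% distal) when a partner had to cover at least 50% of a peak to count. Without members that hold an AAC tract, a repeat described below, 5.15% of promoter and 6.31% of distal members were kept. Between 4 and 5-fold, 30 of 146 such promoter members (20.5%) and 169 of 1048 distal ones (16.1%) were kept, the reverse order. The 5169 members at or above the lowest fold enrichment of the E18.5 list (3.21) were kept in 12.9% of cases.

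Peaks were then compared in bins of height, since members were lower than shared peaks. Below 4-fold, the bin did not fully level height. At promoters, 231 of its 1171 members stood at 3.5 or more, against 1390 of 3740 shared peaks. The distal counts were 1630 of 6161 and 7124 of 18943. Shared peaks were also wider, and 1 base of overlap was enough to be kept. The parts of remaining height and of width in these shares were not tested. Among distal peaks, the intervals of the difference spanned 0 below 8-fold: FOXP1-only peaks were kept in 4.38% of cases below 4-fold and shared peaks in 4.20% (difference 0.180 percentage points, -0.386 to 0.787), and between 4 and 5 the shares were 19.7% and 20.2% (-0.576, -2.99 to 2.02). Between 5 and 6 they were 42.2% and 44.8% (-2.68, -8.83 to 3.70), and between 6 and 8 they were 62.2% and 69.2% (-7.01, -17.9 to 2.85). Between 8 and 12, 15 of 22 FOXP1-only distal peaks were kept and 1198 of 1294 shared ones (-24.4, -45.3 to -8.86). A repeat described below bears on these shares. Without the members that hold an AAC tract, the distal shares were 2.77% (2.38 to 3.21%) below 4-fold, 16.1% (169 of 1048) between 4 and 5, 36.3% (30.3 to 42.7%) between 5 and 6, and 55.7% (44.1 to 66.8%) between 6 and 8, each with the upper bound of its interval below the share of shared distal peaks. Without the members in Cux1 exons as well, 39 of 65 were kept between 6 and 8 (47.9 to 71.0%), an interval that holds the share of shared distal peaks, and 8 of 10 between 8 and 12.

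Promoter members were kept less often than shared promoter peaks in every bin of height that held them. Below 4-fold, 40 of 1171 were kept (3.42%, against 8.80%, difference -5.38, -6.69 to -3.90), in the bin whose height differed between the groups. Between 4 and 5, 31 of 148 were kept (20.9%, against 40.4%; -19.5, -25.7 to -11.9), and between 5 and 6, 8 of 32 (25%, against 71.5%; -46.5, -58.5 to -29.3). The 7 members between 6 and 8 had 4 kept (57.1%), against 93.6% of shared promoter peaks. In the same bins, distal members were kept in 4.38%, 19.7%, 42.2%, and 62.2% of cases.

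**Figure D2:**
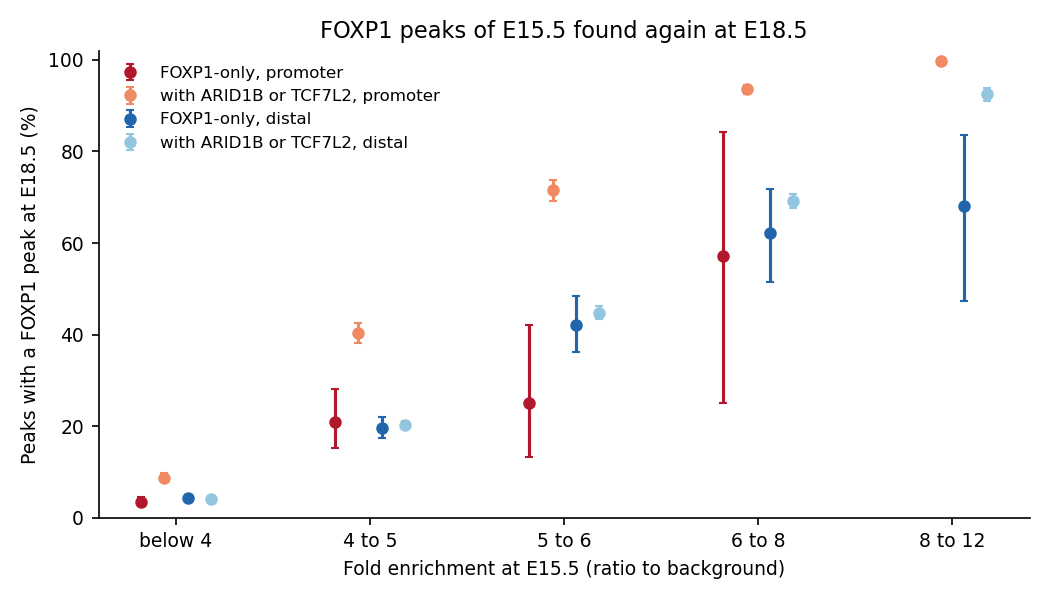
Percent of FOXP1 E15.5 peaks overlapped by a FOXP1 peak at E18.5 (y axis) by fold enrichment at E15.5 (x axis, bins with at least 5 peaks); points are shares and bars 95% Wilson intervals. FOXP1-only distal peaks (dark blue) lie close to the shared distal peaks (light blue) up to 6-fold, with 42.2% and 44.8% kept between 5 and 6, whereas FOXP1-only promoter peaks (red) lie below shared promoter peaks (orange), with 25% and 71.5% in that bin.

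Fold enrichments of kept members were compared between the stages. Of 742 kept members, 522 (70.4%) had a larger fold enrichment at E18.5, with medians of 4.18 and 4.82 at the 2 stages. Of 20812 kept shared peaks, 3485 (16.7%) were larger at E18.5, and their medians were 7.72 and 6.15. The list is cut at 3.21 at E18.5, so that a kept peak of low E15.5 height had to be as high or higher there, and fold enrichments of the 2 lists carry their own depths. The median distance between the summits of both stages was 41 bp, and 732 of 742 lay within 250 bp of each other.

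A tandem repeat was far more frequent in kept members than in the rest. Tracts of AAC of at least 20 bp stood within 100 bp of the summit in 206 of 742 kept members (27.8%, 24.7 to 31.1%) and in 27 of 8229 others (0.328%, 0.226 to 0.477%), a difference of 27.4 percentage points (24.3 to 30.8). Among all FOXP1 E15.5 peaks, 0.474% held such a tract, and among shared peaks 67 of 54310 (0.123%). In windows 2000 bp to either side of the members' summits, the tract was found in 24 of 17942 (0.134%). The feature was noticed in these data and was not fixed beforehand.

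Of the 233 members with an AAC tract, 206 were kept at E18.5 (88.4%, 83.7 to 91.9%), and of the 8738 members without one, 536 (6.13%). The difference was present within bins of height: below 4-fold, 114 of 139 members with a tract were kept (82.0%) and 196 of 7193 without (2.72%; difference 79.3 percentage points, 72.1 to 84.8), and between 4 and 5 the counts were 47 of 48 and 199 of 1194. The fold enrichment of these kept members had medians of 3.92 (E15.5) and 8.21 (E18.5), and 205 of 206 were larger at E18.5. Without a tract, the medians of kept members were 4.30 and 4.53, and 317 of 536 were larger at E18.5. The 67 shared peaks with a tract had 53 kept (79.1%), and 45 of those 53 were larger at E18.5. These windows were repeat-rich, with a median of 48.5% of bases soft-masked against 10.0% in members without a tract; the part of read mapping in these values was not tested.

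The kept share was larger with longer tracts. It was 50 of 66 (75.8%) for tracts of 20 to 29 bp, 65 of 75 (86.7%) for 30 to 39 bp, 63 of 64 (98.4%) for 40 to 49 bp, and 28 of 28 for 50 bp or more. Their E15.5 fold enrichment had medians between 3.67 and 3.92 in these length classes. The distal members with a tract numbered 214 and the promoter members 19. They lay far from genes, at a median of 53571 bp from the nearest protein-coding TSS, against 15198 bp for members without a tract, and their windows had a median GC content of 39.5%, against 48.0%.

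The reverse count, from all tracts in the genome to peaks, was also made. Chromosomes 1 to 19 held 14876 AAC tracts of at least 20 bp, with a median length of 23 bp. FOXP1 peaks overlapped 487 of them at E15.5 (3.27%) and 1039 at E18.5 (6.98%), in the shorter of the 2 FOXP1 lists, and 382 at both stages. In the same order of stages, ARID1B overlapped 0.706% and 0.558%, and TCF7L2 0.202% and 0.424%. At E18.5, FOXP1 peaks covered 2.78% of tracts of 20 to 29 bp, 13.8% of 30 to 39 bp, 29.9% of 40 to 49 bp, and 50.8% (100 of 197, 43.8 to 57.7%) of 50 bp or more. At E15.5 the corresponding shares were 2.03%, 5.40%, 9.46%, and 18.3%. In the ARID1B and TCF7L2 lists no length class exceeded 1.02%.

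**Figure D3:**
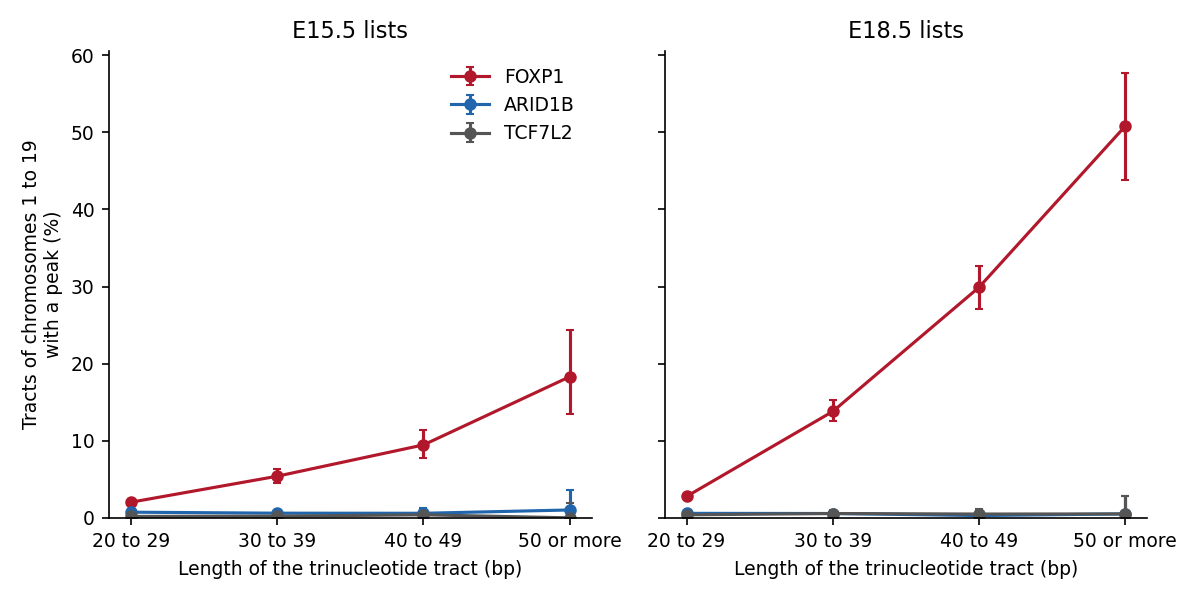
Percent of AAC tracts on chromosomes 1 to 19 overlapped by a peak (y axis) by tract length (x axis, bp), in the E15.5 lists (left) and E18.5 lists (right); bars are 95% Wilson intervals. The FOXP1 share climbs from 2.03 to 18.3% at E15.5 and from 2.78 to 50.8% at E18.5, while ARID1B and TCF7L2 stay at or below 1.02% in every length class.

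The other units named here were covered less often than AAC at E18.5. Of 260809 AC tracts of at least 20 bp, FOXP1 peaks overlapped 1.08% in the earlier and 0.273% in the later list, and of 42293 tracts of AAAC, which differ from AAC by 1 added A, 0.615% and 0.229%. The units AAAAC (0.704% and 0.227%), AAT (0.526% and 0.268%), and AAG (0.212% and 0.236%) were covered at similarly low shares. AGC tracts, of which 4.14% met a FOXP1 peak at E15.5 and 2.47% at E18.5, also met ARID1B at 3.70% and 3.40%. Among the members, 97 held an AC tract and 14 of them were kept, 21 held AAAC and 7 were kept, and 5 held AAG and 4 were kept.

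Of the 10 members of highest E18.5 fold enrichment, 7 held an AAC tract. The highest stood 1056 kb from Slitrk1, a synaptic adhesion gene, with 12.8-fold in the E15.5 list and 30.7-fold in that of E18.5, and the next in an intron of Tenm2, a teneurin of synaptic adhesion, with 10.4-fold and 30.4-fold and an uninterrupted run of only 11 bp. A member in an intron of Spats2 had 9.75-fold and 25.6-fold, and a distal one nearest to Cdc5l, a splicing factor gene, 5.19-fold and 25.1-fold. The members 418 kb from Gm9195 (24.5-fold at E18.5) and in Lect2 (23.4-fold) held runs of 13 and 12 bp only. Those nearest to Nr4a2, a nuclear receptor gene (22.5-fold), in Lsamp, a neuronal adhesion gene (20.9-fold), near Dhrs7 (19.4-fold), and in Syt16 (19.4-fold) held tracts of 23 to 41 bp.

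The CTCF core was the other sequence feature of the members. It was found on either strand in 2031 of 8971 member windows (22.6%, 21.8 to 23.5%), against 12.7% of all FOXP1 E15.5 windows, 11.1% of shared ones, and 3.28% of windows 2000 bp away from the members' summits. Among distal peaks the shares were 23.6% of members and 11.1% of shared peaks (difference 12.5 percentage points, 11.5 to 13.5). The shared peaks were not uniform: the core stood in 7.26% of those with ARID1B alone and in 21.8% (20.6 to 23.2%) of those with TCF7L2 alone. In bins of height, it was found in 19.9% of distal members below 4-fold and 6.89% of shared distal peaks, in 41.0% and 13.6% between 4 and 5, and in 94 of 249 and 814 of 4406 between 5 and 6. When 16 of the 20 positions of the HOMER CTCF consensus had to match, the shares were 10.5% of members and 3.36% of shared peaks.

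The kept share of members with the core was set beside that of other members. Leaving aside those with an AAC tract, 183 of 2022 were kept (9.05%, 7.88 to 10.4%), against 5.26% of members with neither feature. They were also higher, with a median of 3.67-fold. Without Cux1 exons, the kept shares between 4 and 5-fold were 16.3% with the core and 17.1% without (difference -0.721 percentage points, -4.94 to 3.65), and between 5 and 6-fold 34.3% and 35.6% (-1.28, -12.8 to 10.6). Below 4-fold they were 3.60% and 2.51% (1.09, 0.127 to 2.27). The member with the core in an intron of Prkar2b, a regulatory subunit of protein kinase A, had 7.59-fold at E15.5 and was not kept, and the one nearest to Akr1cl had 7.34-fold and 10.4-fold. No CTCF measurement belongs to these lists, and a match of letters is not a bound site.

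The forkhead sequence TGTTTAC was about as frequent in FOXP1-only peaks as in the sequence around them. It was found on either strand in 245 of 8971 windows (2.73%, 2.41 to 3.09%), against 2.89% of all FOXP1 E15.5 windows, 2.91% of shared ones, and 2.72% (2.49 to 2.97%) of windows 2000 bp away. Among distal peaks, members held it less often than shared peaks (2.76% and 3.59%; difference -0.832 percentage points, -1.23 to -0.398), and the share was 4.24% in peaks with ARID1B alone. Kept members held it in 26 of 742 windows (3.50%) and others in 219 of 8229 (2.66%), a difference of 0.843 points (-0.320 to 2.46). By height, it stood in 2.56% of distal members and 3.53% of shared distal peaks below 4-fold, in 3.38% and 3.53% between 4 and 5, and in 4.42% (11 of 249, 2.48 to 7.74%) and 3.72% between 5 and 6, so that the lower share of members was seen below 4-fold. The HOMER FOXP1 consensus stood in 0.869% of member windows and 0.864% of those 2000 bp away. Of the 26 kept members with TGTTTAC, the highest also held AAC repeats or a CTCF core, as the sequences above show. That nearest to Tmem200a has both a tract of 22 bp and a CTCF core. The member nearest to Snrpn has a tract of 55 bp beside the motif, and the one nearest to Rpl5 a CTCF core.

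**Figure D4:**
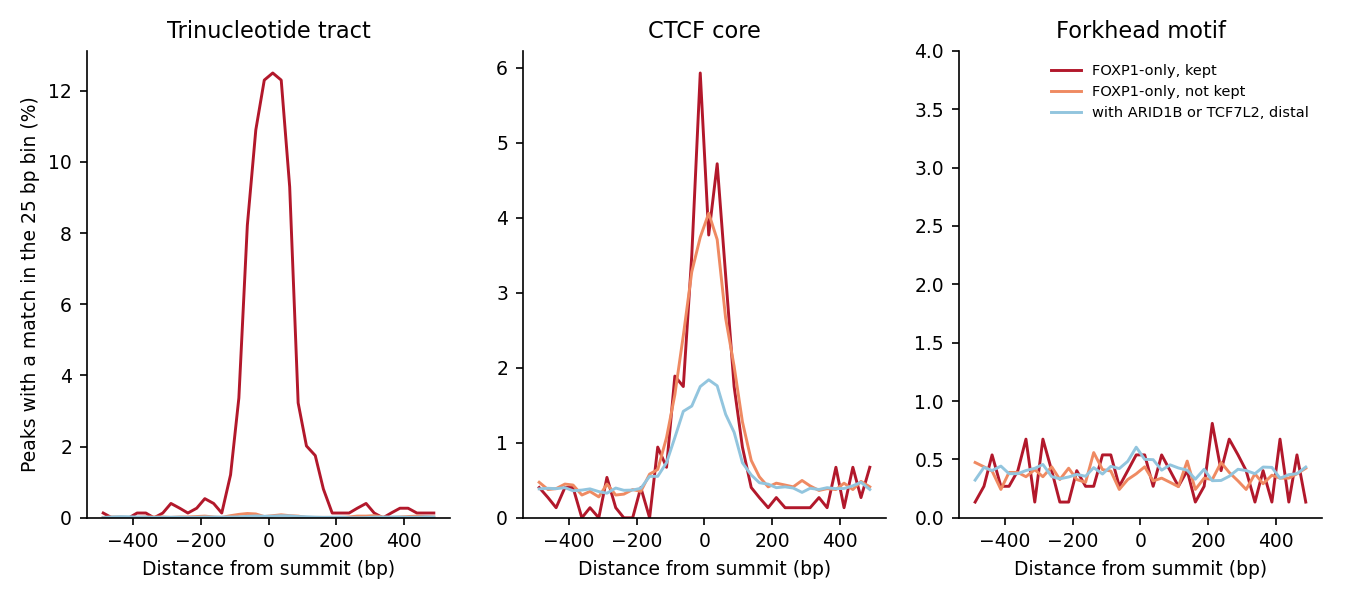
Percent of peaks with a match (y axis, per 25 bp bin) by distance from the E15.5 summit (x axis, bp) for the AAC tract (left), the CTCF core (middle), and TGTTTAC (right). Kept FOXP1-only peaks (red) peak at the summit for the tract, at 12.5%, and for the core, at 5.93%; those not kept (orange) peak for the core, at 4.06%, and have at most 0.122% for the tract in any bin, while TGTTTAC stays between 0.135 and 0.809% in both. Shared distal peaks (light blue) reach 1.84% for the core.

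Several sequences common in shared distal peaks were less common in the members. CATCTG, an E-box of neurogenic bHLH factors, stood in 16.6% of distal members and 29.3% of shared distal peaks (difference -12.7 percentage points, -13.6 to -11.7), and in 16% of windows 2000 bp away from distal members. CAGCTG, another E-box, was found in 822 of 7612 and 6772 of 36533, with 9.77% away from the summit. The homeobox core TAATTA stood in 5.27% of distal members, 9.06% of shared distal peaks, and 5.54% of windows away from the members. CTTTGAT, the sequence of TCF and LEF factors, was found in 2.94% and 2.78%. At promoters, GGGCGG, the Sp factor box of CpG islands, was found in 9.79% of members and 45.6% of shared peaks.

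A single gene stood out among promoter and exonic members. In Cux1, which spans chr5:136248135-136567490, 24 FOXP1-only peaks had their summit in the gene body, 18 of them in a coding exon and 1 in a UTR. Coding bases make up 1.80% of the gene. In the rest of the genome, the gene with most members in coding exons was Cdc27, with 3, and only 4 more had 2 (Axin2, Kdm6b, Klhl14, and Nfic). The 19 exonic members had fold enrichments of 4.05 to 11.1 with a median of 6.58, higher than the median of all members, and none was kept at E18.5 (0 of 19, which allows a share of up to 16.8%). Their summits lay at a median of 6 bp from the middle of an exon, with a median peak width of 395 bp. Of the 5 other members in the gene, 1 was kept.

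The peaks followed the exons of some Cux1 transcripts and not of others. Of 34 coding intervals, 23 were overlapped by a FOXP1 E15.5 peak, 1 by a FOXP1 E18.5 peak, and 2 by each of the ARID1B and TCF7L2 lists. For the transcripts Cux1-207 and Cux1-211, 22 of 23 coding exons had a FOXP1 E15.5 peak, and for Cux1-213, all 18. For Cux1-206 and Cux1-212, 14 of 24 had one, and the 10 coding intervals between chr5:136274794 and 136313314, which include the 3 longest of the gene at 836, 673, and 672 bp, had none. The exonic members rest on 1 list; whether their reads came from genomic chromatin or other DNA, and from which libraries, was not tested. Leaving out these 19 members moved the kept share of all members from 8.27 to 8.29%.

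**Figure D5:**
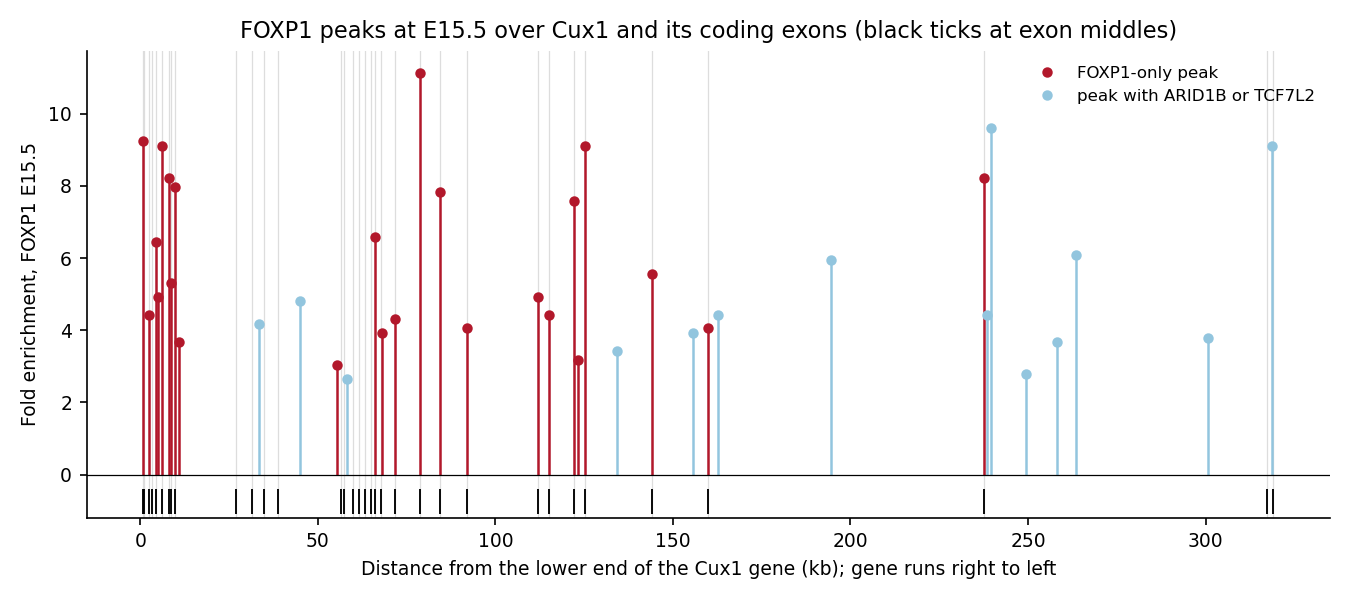
Fold enrichment (y axis) of FOXP1 E15.5 peaks along Cux1 (x axis, kb from the lower end of the gene), as FOXP1-only peaks (red) and peaks shared with ARID1B or TCF7L2 (blue), over the middles of coding exons (black ticks). Red peaks stand on the exons at the left end of the gene and again to the right of its long exons, reach 11.1-fold, and are missing from the exons of the stretch in between.

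By E15.5 fold enrichment, the highest promoter member was the Cux1 exon shown above (9.11-fold), with the same limit on the origin of its reads. It was followed by a member at Psmd14, a deubiquitinase of the proteasome lid, with 7.21-fold at E15.5, 10.7-fold at E18.5, and an AAC tract of 44 bp. The next were at Mcur1, which regulates mitochondrial calcium uptake (6.58-fold), the zinc finger gene Zfp959 (6.45-fold), Btn1a1, a butyrophilin of milk fat (6.20-fold), and Invs, the ciliary protein inversin (5.95-fold), none of them kept. Nicn1 had 6.20-fold and, in the later list, 4.53-fold, and Fanca, of the Fanconi anemia DNA repair complex, had 5.95-fold and 5.41-fold with a tract of 28 bp. Hsd17b6, a steroid dehydrogenase (5.70-fold), and Glipr1l1, a sperm protein (5.57-fold), were not kept. Of these 10, 3 were kept, and 2 of the 3 held an AAC tract.

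Among the 10 highest distal members, 8 were kept. The highest of all, 1426 bp wide in an intron of Tmem132d, had 19.7-fold (155 reads at its summit) and no E18.5 peak. A member in Cacng4, an auxiliary subunit of AMPA receptors, had 17-fold and 18.4-fold at the 2 stages, and one 251 kb from Snrpn, in an imprinted region, 15.1-fold and 4.82-fold. Those in Kif6, a kinesin (10.9-fold and 13.7-fold), and near Prickle2, a planar polarity gene (10.1-fold and 18.4-fold, tract of 41 bp), were higher at E18.5. Besides Tmem132d and the Cux1 exons (11.1, 9.24, and 9.11-fold), the distal member of highest E15.5 fold enrichment without an E18.5 peak lay 368 kb from Arid1b, with 9.37-fold, and those after it in Ano2 (8.35-fold), in a coding exon of the neurofilament gene Nefh (7.59-fold), and in Prkar2b.

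Genes of forebrain neuron types were looked up in lists. A FOXP1-only promoter peak was present at 4.54% of 20780 autosomal protein-coding genes, and 22.6% were the nearest gene of a distal member. Of 26 genes of striatal projection neurons, 6 had a promoter member and 13 a distal one, and of 16 upper-layer neuron genes, 4 and 14. Of 17 deep-layer and subplate genes, none had a promoter member and 8 a distal one, and of 41 forkhead genes, 1 (Foxb2, 3.04-fold) and 18. The synaptic adhesion list had 10 of 45 with a promoter member and 36 with a distal one, whereas none of 1127 olfactory receptor genes had the first and 16 the second. In the other lists, a promoter member was present at 1 of 19 interneuron lineage genes (5.26%), 3 of 36 glutamate and GABA receptor genes (8.33%), 3 of 41 axon guidance genes (7.32%), 7 of 91 potassium channel genes (7.69%), 20 of 385 Zfp genes (5.19%), 5 of 78 ribosomal protein genes (6.41%), and 1 of 39 Hox genes (2.56%). Radial glia and intermediate progenitor genes had 3 of 22, endothelial and pericyte genes 2 of 18, and the microglia and blood (15), vomeronasal receptor (328), and keratin (110) lists none. A distal member was present for 14 of 22 radial glia, 26 of 41 axon guidance, and 10 of 19 interneuron genes. For receptor genes it was 16 of 36, for potassium channels 39 of 91, and for endothelial genes 7 of 18. The counts were 59 of 385 Zfp, 16 of 78 ribosomal protein, 4 of 39 Hox, and 4 of 15 microglia and blood genes. They were 3 of 328 vomeronasal receptor and 5 of 110 keratin genes. A FOXP1 peak of any kind was present at the promoter of 63.4% of all genes and of most genes in many lists, among them 24 of 26 striatal, 16 of 16 upper-layer, 16 of 17 deep-layer, 22 of 22 radial glia, 41 of 41 axon guidance, and 75 of 78 ribosomal protein genes.

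Apart from Cux1, the promoter members of the striatal and upper-layer lists were low. At striatal genes, Drd2, the D2 dopamine receptor (3.29-fold), Penk, the enkephalin precursor (3.42-fold), Ppp1r1b, which encodes DARPP-32 (3.04-fold), and the transcription factor genes Meis2 (3.29-fold), Ebf1 (3.16-fold), and Ikzf1 (3.42-fold) had a member of 23 to 26 reads. At upper-layer genes they were Mef2c (3.54-fold), Mdga1 (3.16-fold), and Plxnd1 (3.29-fold), beside 4 members at promoters of Cux1 transcripts (3.04 to 9.11-fold), 3 of which are among the exonic members whose reads were not traced. Of these 9 genes other than Cux1, 7 had an ARID1B or TCF7L2 peak within 1000 bp of the member, from 2 bp at Ikzf1 and 15 bp at Ppp1r1b to 825 bp at Ebf1, and would not be members if such a neighbor counted as shared; Penk and Meis2 would remain. None was kept at E18.5, and none held an AAC tract, a CTCF core, or TGTTTAC.

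The genes with most members were long ones, and their shares are read against the 14.2% of all FOXP1 peaks that were members. Celf2, an RNA-binding splicing regulator, held 28 of them among 89 FOXP1 peaks (31.5%), at 2.66 to 5.44-fold and with 2 kept. Tcf4, the bHLH gene whose symbol the labels use for the TCF7L2 libraries, held 24 of 104 (23.1%, 2.78 to 4.05-fold, none kept), Nfib, a nuclear factor I gene, 19 of 94 (20.2%), and Msra, a methionine sulfoxide reductase gene, 18 of 50 (36.0%, 2.66 to 3.42-fold, none kept). Dab1 of the reelin pathway held 11 of 56 (19.6%). The share was near or below that of all FOXP1 peaks in Tenm4 (13 of 90, 14.4%), in Gse1 (11 of 130, 8.46%), and in the very long annotated spans of Gm20388 (4435 kb, 44 of 384, 11.5%), which contains Gse1, and of Fgfr2 (2961 kb, 20 of 166, 12%). In these genes other than Cux1 (63.2% of its FOXP1 peaks), the median fold enrichment lay between 2.91 and 3.29. The 1 Mb windows with most members were chr5:111000001-112000000 with 34 of 178 FOXP1 peaks, around Ttc28 and Mn1, chr5:136000001-137000000 with 29 of 74, around Cux1, and chr14:64000001-65000000 with 28 of 79, around Msra. They were followed by chr2:6000001-7000000 with 28 of 77, around Celf2, and chr11:117000001-118000000 with 27 of 122, around Sec14l1 and Sept9. In the windows around Cux1 and Celf2 1 member each was kept, and in the other 3 none.

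The 6699 members with none of the 3 features (an AAC tract, the CTCF core, or a Cux1 exon) made up 74.7% of all. Their median fold enrichment was 3.29, and 353 were kept (5.27%, 4.76 to 5.83%). The 2022 with a CTCF core and no tract made up 22.5% of the members, and the 233 with a tract 2.60% of the members and 27.8% of those kept. No member window held 30 bases identical to the mitochondrial genome.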

How the data were processed

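FOXP1, ARID1B and TCF7L2 ChIP-seq of wild-type mouse cortex was measured at E15.5 and E18.5, with 2 ChIP and 2 input libraries for each. Per the labels and the study's methods, the authors aligned single-end reads to GRCm38 with BWA 0.7.15, kept reads of mapping quality 30 or more, merged replicates, and called narrow peaks with MACS2 2.2.7 against input at a q-value of 0.01, with reads extended to 200 bp and local background switched off. The deposited fold enrichment is a ratio of summit reads to background, with 1 added to both. The deposited −log10 p-value and −log10 q-value, and a score derived from the latter, come from the same caller, as the authors wrote them. In the FOXP1 lists all pairs of fold and p matched 1 constant background within 0.01, from which reads at a summit were computed.

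Lists were compared in Python 3.11.15 with numpy 2.4.6, pandas 2.3.3 and scipy 1.17.1 at a minimum overlap of 1 base, on chromosomes 1 to 19; 799 FOXP1 peaks elsewhere were left out. Promoters were the 2000 bp upstream of 132670 transcription starts of GENCODE vM21. Motifs and tandem repeats (at least 20 bp) were searched on both strands of GRCm38, in 200 bp around each summit and 2000 bp away. Wilson and Newcombe intervals are at 95%, and no test was made because every list, by the study's methods, merges its replicates. Whole-library read totals were not used here. Scripts were tested on simulated data. Members and gene lists were chosen with earlier results of these data known. All members, chromosome 18 included, were searched; sequences of chromosome 18 and of some further members are not reported here. Named were the 10 highest promoter members at protein-coding genes and the 10 highest distal ones, the 10 highest at E18.5 among those kept, the 5 highest promoter and 5 highest distal ones not kept, the 10 genes and 5 windows of 1 Mb with most members, and the promoter members of the striatal, upper-layer, deep-layer and forkhead lists. The AAC tract, the CTCF core, the other motifs beside TGTTTAC, the Cux1 exons and what is named for them were chosen after the values were seen.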

Additional observations from a re-analysis of the deposited data

How the results depend on the processing

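Of 66 values recomputed under 15 alternatives, 29 stayed within the 95% interval of the main share, or for counts of members within 1.5 times the main count, and 37 did not. Several alternatives were chosen after seeing the data: the AAC tract lengths, the HOMER CTCF motif, and leaving out members with a tract or in Cux1 exons. With −log10 p of at least 15, 668 members remained, of which 9.73% were at promoters and 40% were kept (30.8% at promoters, 41.0% distal), 3.44% held TGTTTAC and 39.8% the CTCF core, and 98.2% of those with an AAC tract were kept. When a partner had to cover at least 50% of a peak, there were 13228 members, of which 21.6% were at promoters, 14.6% were kept, and the order of the places turned (31.5% at promoters, 9.93% distal), with a CTCF core in 19.7%. When a partner within 1000 bp also counted, 5797 members remained, with 10.7% at promoters, 11.2% kept (10.1% and 11.3%), 93.0% of those with a tract kept, and a CTCF core in 30.1%. With the partner lists of E15.5 only, there were 13736 members, 17.9% at promoters and 9.11% kept (8.19% and 9.32%). Promoters held 24.3% with 2000 bp on either side of a TSS and 7.87% with protein-coding transcripts only. At or above the lowest E18.5 fold enrichment, 12.9% were kept (10.7% and 13.2%). In windows of 100 bp, TGTTTAC stood in 1.35% and the CTCF core in 13.4%; the HOMER FOXP1 consensus stood in 0.869% and the HOMER CTCF consensus in 10.5%. With tracts of at least 30 bp, 93.4% of their members were kept. Without members that hold a tract, 6.13% of all, 5.15% of promoter, and 6.31% of distal members were kept. No paired analysis was possible because each list, by the study's methods, merges its replicates, and for the same reason no replicate could be left out. The depth of the E18.5 list limits the kept shares. Its peaks were called on a background of 2.81 scaled reads (5.01 ChIP reads before scaling), against 6.90 at E15.5. Its lowest fold enrichment was 3.21, so low peaks of E15.5 could have gone undetected. A member not kept is one not detected, not one shown to be absent.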

Other observations

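FOXP1 peaks on the X chromosome, which the choice of members left out, were counted by the same rule. Of 760 X-linked FOXP1 peaks at E15.5, 150 met no ARID1B or TCF7L2 peak (19.7%, above the 13.0 to 15.4% of the 19 autosomes), and 13 of these had a FOXP1 peak at E18.5 (8.67%). An AAC tract stood in 1 of the 150, which was among the 13 kept; on the autosomes 233 of 8971 members and 206 of 742 kept ones held one. The difference was not tested, and counts of 1 are too few to compare. The CTCF core stood in 29 of the 150 (19.3%), against 9.34% of X-linked shared peaks.

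Seen from E18.5, the FOXP1 list held 1541 autosomal peaks without ARID1B or TCF7L2 at either stage. An AAC tract lay in 820 of them (53.2%), of which 228 overlapped a FOXP1 peak of E15.5, and in 87 of 22985 shared E18.5 peaks (0.379%). The median E18.5 fold enrichment was 5.12 in FOXP1-only peaks as a whole and 6.0 in those with a tract. Of the 1541, 793 (51.5%) overlapped an E15.5 peak, against 99.3% of the shared ones.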
